A study of Homo sapiens with 9 samples.

Results

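Autophagy is the pathway by which a cell encloses cytoplasm, protein aggregates or pieces of organelle in a double membrane and delivers them to the lysosome, and ER-phagy is its form for the endoplasmic reticulum (ER). The 34 genes described here encode the kinase complex that starts the process, the lipid kinase complexes that mark the membrane, the conjugation machinery that attaches proteins of the ATG8 family to it, and the receptors that bring cargo to it. The rule that chose them names genes by function and uses no measured value, but the genes were chosen with earlier results of these data known. Each gene was read on the probe set with the highest mean signal among those that name it alone. All 34 had such a probe set and passed the filter on low signal, out of 14018 genes that did so. They had 87 probe sets in all, of which 77 were bright enough to test.

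The cells were HEK293, a line derived from human embryonic kidney and not a lung cell. They were transiently transfected with surfactant protein C, a small hydrophobic protein that alveolar type II cells make as a proprotein. Control cells received the wild-type protein (WT), and the mutant groups received the form without exon 4 (Ex4) or the form with the L188Q substitution (LQ). There were 3 arrays in each group, and all groups therefore carried a transfected surfactant protein C. The share of cells that took up the construct and the time after transfection are not given in the sources used here. The labels do not say whether the arrays of a group came from separate cultures, so p-values here reflect array-to-array spread that can be purely technical. A lower signal in this bulk RNA could come from fewer cells of a kind or less RNA per cell, which cannot be told apart.

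Core autophagy proteins work in a fixed order. The ULK kinases with ATG13 and RB1CC1 respond to nutrient and stress signals, the BECN1 and PIK3C3 complexes then make the lipid PI3P, and the ATG12 and ATG8 conjugates extend the membrane. Cargo receptors such as SQSTM1 bind both ubiquitinated protein and ATG8 proteins and are themselves degraded with the cargo, so a receptor's transcript and protein need not move together. Misfolded secretory proteins are cleared mainly by ER-associated degradation, and ER-phagy is a second route for those that aggregate. Arrays measure the transcripts and not autophagic flux.

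The arrays differed as a whole. The median signal ran from 506.4 to 524.4 in WT, from 316.1 to 434.3 in Ex4 and from 303.9 to 371.8 in LQ, and the median log2 signal was 0.54 lower in the mutants (exact permutation p = 0.012 over 84 splits, adjusted 0.036 over 3 measures). The GAPDH 3' to 5' ratio, which tracks RNA quality, averaged 1.31 ± 0.11 (WT), 1.12 ± 0.14 (Ex4) and 1.07 ± 0.016 (LQ), with SD over 3 arrays (exact permutation p = 0.024, adjusted 0.036). The ACTB ratio ran the other way, averaging 1.13 ± 0.12, 1.35 ± 0.18 and 1.18 ± 0.041 (exact permutation p = 0.23). The part of these array differences in the results below was not tested. All 7 measured HEK293 markers lay above the array median on all 9 arrays, while of 6 measured blood markers PTPRC and LYZ lay below it on all 9 and CD79A above it on all 9. Of 6 measured alveolar type II markers other than the transfected gene, SFTPB and LAMP3 lay above it on all arrays and SFTPD below it on all. On 1 of the 5 SFTPC probe sets the Ex4 arrays had 914.4, 39.1 and 28.7, against at least 108292 on every WT and LQ array. LQ lay below WT without overlap there, at 108292 to 126185 against 158962 to 239964. The same held on the other SFTPC probe sets except the dimmest, where LQ and WT overlapped. The part of this difference in the results below was not tested. For 5 of the 34 genes (14.7%) all mutant arrays lay above WT replicates 2 and 3, while WT replicate 1 reached or passed the lowest mutant array. For 6 (17.6%) all mutant arrays lay below WT replicates 2 and 3, while WT replicate 1 was at or below the highest mutant array. The same held for 9.95% of all genes upward and 12.1% downward. Such counts were not made for WT replicates 2 and 3.

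On the representative probe sets and with the deposited scaling, all calls among the 34 genes were in the higher direction. Other settings also called VMP1, ATG13, ATG4D or CALCOCO2 lower. In LQ against WT 2 genes rose and 0 fell by limma, SQSTM1 and ATG12, against a background of 3.69% of all genes higher and 3.63% lower. In Ex4 against WT 0 passed (background 0.0% in each direction), with 9 at an unadjusted p under 0.05 where 27.2% of all genes had one, and in LQ 8 where 30.6% had one. In the mean of both mutants against WT 4 rose and 0 fell, ATG12, RB1CC1, ATG4C and TAX1BP1, with 6.22% of all genes higher and 6.72% lower, while 11 reached an unadjusted p under 0.05 (34.9%). In LQ against Ex4 0 passed (background 0.0%), with 1 at an unadjusted p under 0.05 (4.19%). Both comparisons share the WT arrays. The median log2 change over the 34 genes was 0.18 in Ex4 and 0.18 in LQ, with 21 and 24 of them positive, while the median over all genes was -0.08 and -0.09 with 43.6% positive in each. The autophagy genes were also brighter, with a median mean log2 signal of 11.83 against 10.96 for all genes. With the filter raised to percentile 60 the all-gene median was 0.01 in both mutants and that of the autophagy genes stayed at 0.18.

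**Figure D1:**
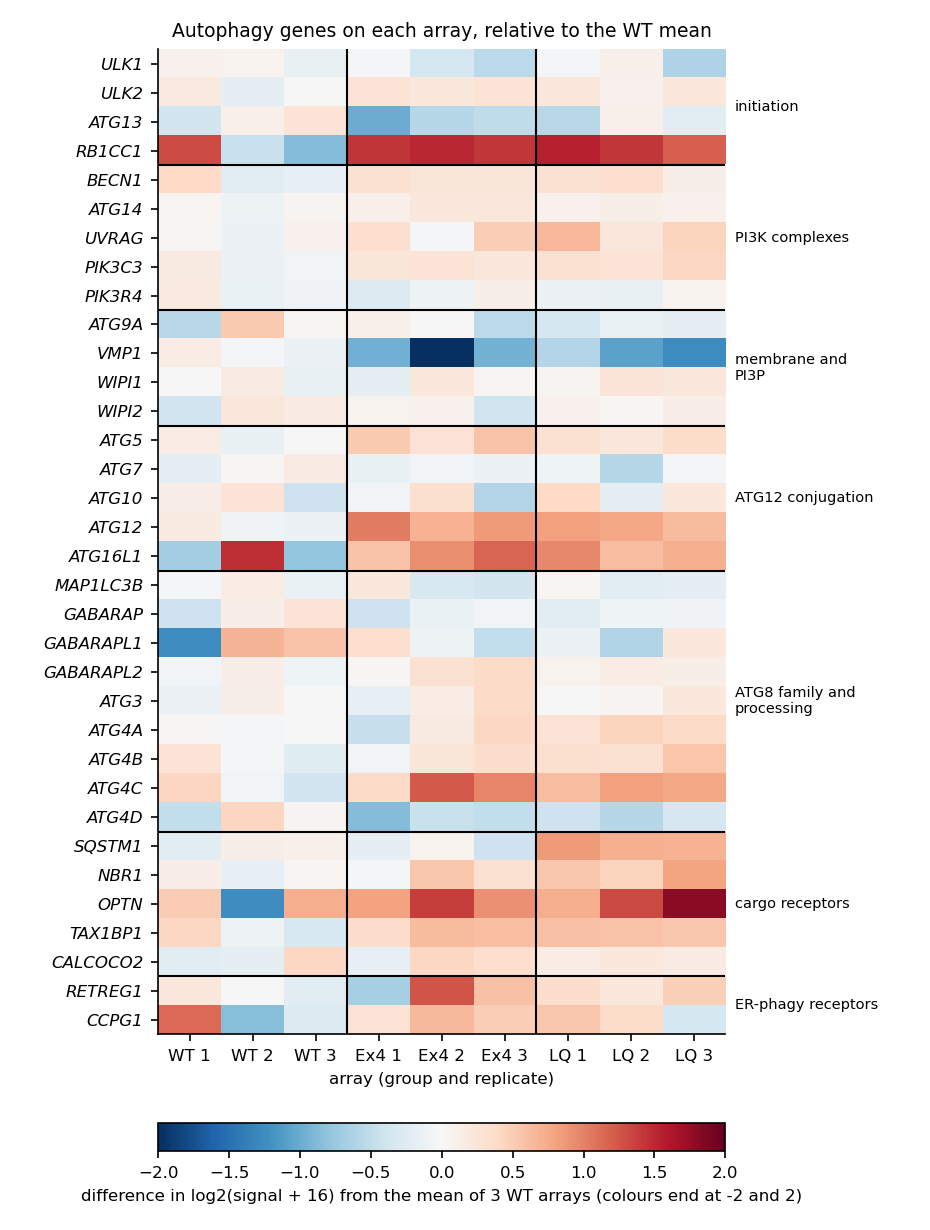
Each of the 34 genes (rows, grouped by role) on each of the 9 arrays (columns), as the difference in log2(signal + 16) from the mean of the 3 WT arrays, with colours ending at -2 and 2. RB1CC1 is positive on WT replicate 1 and all mutant arrays and negative on WT replicates 2 and 3, SQSTM1 is positive on the LQ arrays, and VMP1 is negative on all 6 mutant arrays.

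The arrays were also compared without a model, by whether the groups overlapped. All 3 LQ arrays lay above all 3 WT arrays for 11 of the 34 genes (background 15.7%) and below them for 1 (23.2%). In Ex4 the counts were 7 above (9.07%) and 2 below (14.9%). The 11 in LQ were ATG14, UVRAG, PIK3C3, ATG5, ATG12, ATG4A, ATG4B, ATG4C, SQSTM1, NBR1 and TAX1BP1. The 7 in Ex4 were ULK2, RB1CC1, ATG14, PIK3C3, ATG5, ATG12 and OPTN. VMP1 lay below in both mutants and ATG13 in Ex4. Taking the 6 mutant arrays together, 4 genes lay above WT (6.79%) and 1 below (11.6%). LQ lay above Ex4 for 1 gene, SQSTM1 (5.91%), and below it for 0 (6.47%).

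SQSTM1 (also called p62), the receptor that carries ubiquitinated protein into the autophagosome, separated LQ from both other groups. On the representative probe set the signal was 9762.5, 12213 and 12093 on the WT arrays, 9984, 11874 and 8476 on the Ex4 arrays, and 20397, 18458.5 and 18371 on the LQ arrays. Every LQ array was above all WT and Ex4 arrays, which overlapped each other. The log2 change of LQ against WT was 0.75 ± 0.16 (SE, 1.69-fold, limma adjusted p = 0.030), and in Ex4 it was -0.17 with a 95% interval of -0.53 to 0.18 (limma adjusted p = 0.53), although this became 0.32 with median centring. LQ was 1.90-fold above Ex4, with a log2 difference of 0.93 (95% interval 0.57 to 1.28), but no gene passed in that comparison and for SQSTM1 the limma adjusted p = 0.77. The call in LQ was lost after quantile normalization (limma adjusted p = 0.051), without the variance trend (0.071) and when WT replicate 2, WT replicate 3 or any LQ array was left out (log2 0.65 to 0.81 over all 9 omissions, highest limma adjusted p = 0.11). It rests on 1 probe set: the other 4 are dimmer and had log2 changes of 0.13, -0.65, -0.51 and -1.24 in LQ, and their average with the representative was -0.30 (limma adjusted p = 0.28). Of its 3 RefSeq promoter windows, the most downstream is shown because LQ stood apart for this gene. It covers 250 bases upstream of the start on the plus strand at chr5:179820655-179820904 (GRCh38.p14), and it holds none of the 4 motifs searched, which are listed with ATG14 and ATG3.
SQSTM1: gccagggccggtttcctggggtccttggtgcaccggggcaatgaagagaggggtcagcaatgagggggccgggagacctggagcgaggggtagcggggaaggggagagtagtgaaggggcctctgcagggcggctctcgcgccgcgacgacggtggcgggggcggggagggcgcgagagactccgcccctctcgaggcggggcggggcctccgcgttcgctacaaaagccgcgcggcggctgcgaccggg

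The other receptors did not pass in LQ on their representative probe sets. NBR1, which binds ubiquitinated cargo beside SQSTM1, had signals of 5652, 4611 and 5324 in WT, 5020, 7563 and 6376 in Ex4 and 7509, 7048 and 8938 in LQ. All LQ arrays lay above all WT arrays, while Ex4 overlapped them, and the log2 change in LQ was 0.59 ± 0.19 (SE, limma adjusted p = 0.069). The next brightest NBR1 probe set had -0.08 in Ex4 and 0.24 in LQ (limma adjusted p = 0.42 in LQ). A much dimmer one had 0.16 and 0.07. TAX1BP1, a receptor with a role in clearing aggregates, had 10316, 7212 and 6161 in WT, 9818, 11907 and 11681 in Ex4 and 11559, 11508 and 11196 in LQ. WT replicate 1 lay above Ex4 replicate 1 but below every LQ array. TAX1BP1 rose 1.46-fold in the mean of both mutants (log2 0.54 ± 0.16, SE, limma adjusted p = 0.049), with 0.52 in Ex4 and 0.57 in LQ. Its other 2 probe sets had 1.16 and 0.89 in Ex4 and 1.03 and 0.67 in LQ. The brighter of these 2 passed in LQ (limma adjusted p = 0.0435) and in the mean of both mutants at 1.09 (0.0227). The call on the representative probe set was lost in 5 of 10 alternative settings. It was also lost on omitting any single array other than WT replicate 1 or Ex4 replicate 1 (log2 0.38 to 0.75, highest limma adjusted p = 0.20).

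OPTN, a receptor of mitochondria and bacteria, had signals of 2295, 672.6 and 2674 in WT, 2809, 4236.5 and 3034 in Ex4 and 2672, 4033.5 and 5680 in LQ. WT replicate 2 was the lowest array, and LQ replicate 1 lay within the WT range. The log2 change was 1.03 in Ex4 (limma adjusted p = 0.18) and 1.29 in LQ (0.088). The second OPTN probe set had smaller changes of 0.30 and 0.52. CALCOCO2 (NDP52) had 0.20 and 0.18 (limma adjusted p = 0.59 and 0.61). Its other 3 probe sets were negative in both mutants, and 2 of them passed in the mean of both mutants at -0.79 and -1.15 (limma adjusted p = 0.042 and 0.028). In LQ all 5 cargo receptors had a positive log2 change on the representative probe set, with a median of 0.59 and 1 call, and in Ex4 4 of 5 with a median of 0.27 and 0 calls.

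**Figure D2:**
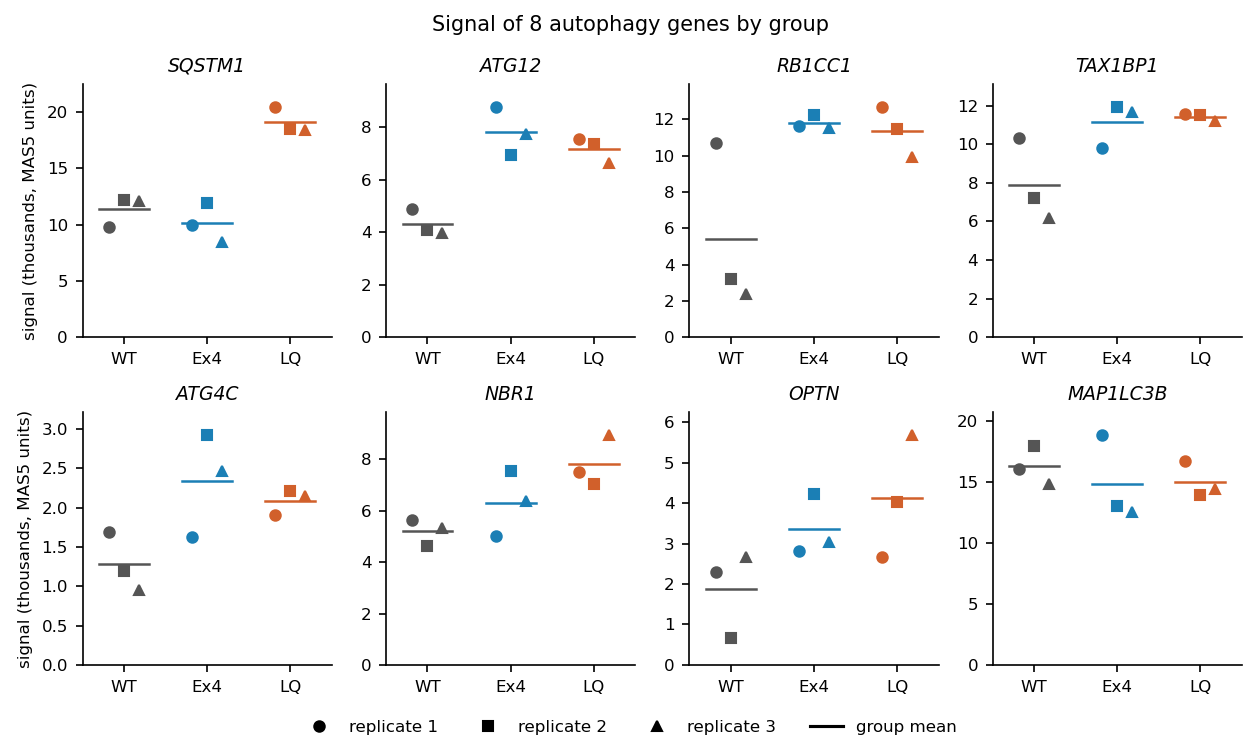
Signal in MAS5 units for 8 of the genes (vertical axes scaled down as labelled), with 1 point per array shaped by replicate number and a line at the group mean. The LQ points of SQSTM1 stand clear of the WT and Ex4 points, both mutants stand clear of WT for ATG12, and for RB1CC1 and TAX1BP1 WT replicate 1 lies far above the other WT arrays.

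ATG12, the ubiquitin-like protein that is joined to ATG5 to help attach ATG8 proteins to the membrane, was higher in both mutants. The signal was 4879, 4089 and 3956 in WT, 8761, 6935 and 7742 in Ex4 and 7557, 7363 and 6656 in LQ. All 6 mutant arrays were above all 3 WT arrays, and the mutants overlapped each other. The log2 change was 0.80 ± 0.14 in the mean of both mutants (SE, 1.74-fold, limma adjusted p = 0.018), 0.74 ± 0.16 in LQ (1.67-fold, limma adjusted p = 0.030) and 0.86 ± 0.16 in Ex4 (1.81-fold, limma adjusted p = 0.076), where it did not pass. LQ minus Ex4 was -0.12 with a 95% interval of -0.47 to 0.23. The mean-of-mutants call was kept in all 10 alternative settings and in 7 of 9 single-array omissions, and was lost on omitting WT replicate 2 or 3 (log2 0.74 to 0.89, highest limma adjusted p = 0.091). The LQ call was lost after quantile normalization, without the variance trend, and on omitting WT replicate 2 or 3 or any LQ array (log2 0.68 to 0.83, highest limma adjusted p = 0.10). A second, dimmer ATG12 probe set had 1.71 in Ex4 and 1.73 in LQ (limma adjusted p = 0.076 and 0.020), and the third -0.11 and -0.21. The ATG12 window is shown because this gene was called most often across settings. It covers 250 bases upstream of the RefSeq start on the minus strand, chr5:115841566-115841815 (GRCh38.p14), and holds none of the 4 motifs.
ATG12: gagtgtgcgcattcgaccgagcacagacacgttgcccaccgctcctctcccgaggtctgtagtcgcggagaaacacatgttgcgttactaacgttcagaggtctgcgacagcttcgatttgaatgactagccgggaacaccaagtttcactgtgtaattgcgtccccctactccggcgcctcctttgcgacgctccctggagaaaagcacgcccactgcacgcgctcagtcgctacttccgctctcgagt

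The other conjugation genes did not pass on their representative probe sets. ATG5, the partner of ATG12, had 10177, 8266 and 9283 in WT, 13244.5, 11261 and 13681 in Ex4 and 11384, 10739 and 11856 in LQ. All 6 mutant arrays lay above the WT arrays, at log2 changes of 0.46 ± 0.15 in Ex4 and 0.30 ± 0.15 in LQ (SE, limma adjusted p = 0.11 and 0.21), and a second probe set passed in the mean of both mutants at 0.65 (limma adjusted p = 0.048). ATG7, which activates both ubiquitin-like proteins, had -0.11 and -0.23 on its representative probe set. A dimmer ATG7 probe set pointed the other way and passed, at 1.496 in Ex4, 1.54 in LQ (limma adjusted p = 0.027) and 1.52 in the mean of both mutants (0.019), while another had -0.27 and -0.48. ATG10, which transfers ATG12, had -0.11 and 0.14. ATG16L1, which anchors the ATG12 conjugate to the membrane, had 0.89 and 0.76, but WT replicate 2 at 1232 was the highest of its 9 arrays and the other WT arrays, at 259.2 and 245.8, the lowest.

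RB1CC1 (FIP200), the scaffold of the ULK complex, had the highest log2 change of the 34 genes in both mutants. The signal was 10677, 3178 and 2358 in WT, 11625, 12235 and 11527 in Ex4 and 12655, 11493 and 9941 in LQ. WT replicate 1 lay with the mutant arrays, above LQ replicate 3, while WT replicates 2 and 3 were far below. RB1CC1 rose 2.67-fold in the mean of both mutants (log2 1.42 ± 0.35, SE, limma adjusted p = 0.032), with 1.45 in Ex4 (limma adjusted p = 0.088) and 1.39 in LQ (0.059). Its second probe set had 1.86 and 1.93, and passed in LQ (limma adjusted p = 0.044). The call was lost after quantile normalization (limma adjusted p = 0.055) and without the variance trend (0.069). When arrays were omitted singly, it held only on omitting WT replicate 1 or Ex4 replicate 1, and the log2 change ran from 0.98 to 2.07 (highest limma adjusted p = 0.13).

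The other genes of the complex did not pass. ULK1, a kinase that starts the pathway, had log2 changes of -0.31 in Ex4 and -0.18 in LQ (limma adjusted p = 0.45 and 0.66). Its paralog ULK2 had 0.25 and 0.17 (limma adjusted p = 0.34 and 0.48). ATG13, the regulatory subunit, had 4232, 5948 and 6668 in WT, 2762, 3730 and 3886 in Ex4 and 3768, 5943 and 4743 in LQ. All Ex4 arrays lay below all WT arrays and LQ overlapped both, at log2 changes of -0.69 in Ex4 and -0.22 in LQ (limma adjusted p = 0.11 and 0.55). This fall was not seen on the other ATG13 probe sets, which are nearly as bright. They had 0.07 and -0.05 in Ex4, and 0.02 and 0.14 in LQ.

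Among the PI3K genes, no member passed on its representative probe set, and 4 of 5 were positive in each mutant with medians of 0.24 in Ex4 and 0.25 in LQ. PIK3C3 (VPS34), the lipid kinase itself, was 7912 to 9662 in WT, 9979 to 10348 in Ex4 and 10337 to 11429 in LQ. The groups did not overlap with WT, at log2 changes of 0.24 and 0.33 (limma adjusted p = 0.30 and 0.15). A much dimmer PIK3C3 probe set passed lower in the mean of both mutants at -1.42 (limma adjusted p = 0.044). ATG14, which directs the complex to autophagosome formation, also lay above WT in both mutants, at 0.18 and 0.10. UVRAG, its alternative subunit, had 0.26 and 0.44. BECN1 had 0.26 and 0.25, with WT replicate 1 at 8784 as the highest of the 9 arrays. PIK3R4 had -0.09 and -0.06.

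ATG14 and ATG3 are the 2 of 31 genes with a promoter window that held the CLEAR letters, the element bound by the lysosomal regulator TFEB. RB1CC1, UVRAG and ATG4D had no window and were not searched. The search covered both strands of 250 bases upstream of each RefSeq start (39 windows of these genes, 35116 in all) for CLEAR (GTCACGTG, in 2.16% of all windows), the E-box inside it (CACGTG, 6.34%), the amino acid response element CARE (TGATGCAA, 0.772%) and the ER stress element ERSE (CCAAT and CCACG at a fixed spacing, 0.074%). No window of these genes held the CARE or the ERSE letters, and no window held an E-box apart from the CLEAR matches. The last 60 bases before each start are shown for both genes, with the CLEAR letters in capitals. For ATG14 they lie at bases -21 to -14 from the start (chr14:55411831-55411890, minus strand), written as the reverse complement, and for ATG3 at bases -20 to -13 (chr3:112561963-112562022, minus strand). ATG3, which attaches ATG8 proteins to lipid, had log2 changes of 0.13 and 0.09, so neither carrier of these letters passed. The match is to letters and says nothing of binding.
ATG14: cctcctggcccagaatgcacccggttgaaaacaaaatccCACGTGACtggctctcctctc
ATG3: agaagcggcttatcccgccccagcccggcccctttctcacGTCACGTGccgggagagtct

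The membrane genes were mixed. VMP1, an ER membrane protein needed for autophagosome formation, had 1449, 1276 and 1203 in WT, 662.1, 62.7 and 670.7 in Ex4 and 867.0, 612.9 and 534.8 in LQ. All 6 mutant arrays lay below the WT arrays, and Ex4 replicate 2 was far below the rest. The log2 changes were -1.99 ± 0.66 in Ex4 and -0.97 ± 0.66 in LQ (SE, limma adjusted p = 0.11 and 0.35), and 3 further VMP1 probe sets that also name another gene were not used. ATG9A, the membrane protein that seeds the autophagosome, had -0.15 and -0.23. WIPI1 and WIPI2, which bind PI3P, had 0.01 and 0.18, and -0.08 and 0.08, on their representative probe sets. The other WIPI2 probe sets disagreed: 1 passed lower, at -0.81 in Ex4, -0.90 in LQ (limma adjusted p = 0.044) and -0.86 in the mean of both mutants (0.028), and another had 0.42 and 0.50.

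The ATG8 proteins mark the membrane and are the docking site for receptors, and none of the 4 passed on its representative probe set. MAP1LC3B (LC3B) had 16045, 17969 and 14861 in WT, 18851, 13059 and 12543.5 in Ex4 and 16709, 13955 and 14406 in LQ. The groups overlapped, at log2 changes of -0.16 (95% interval -0.54 to 0.23) and -0.12 (-0.50 to 0.27), so a log2 rise over 0.27 or a fall over 0.54 lay outside both intervals. GABARAP had -0.20 and -0.13, GABARAPL1 -0.09 and -0.17, and GABARAPL2 0.23 and 0.11. The second GABARAPL1 probe set, which is dimmer, had 1.65 in Ex4 and 2.08 in LQ, and passed in LQ (limma adjusted p = 0.026) and in the mean of both mutants at 1.87 (0.020). The sign of MAP1LC3B depends on the scaling, and it was 0.33 in Ex4 and 0.47 in LQ when array medians were set equal.

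The ATG4 proteases cut ATG8 proteins for conjugation and recycling. ATG4C had 1685.5, 1196 and 947.8 in WT, 1624, 2919 and 2459 in Ex4 and 1903, 2215 and 2143 in LQ. All LQ arrays lay above all WT arrays, and Ex4 replicate 1 lay within the WT range. ATG4C rose 1.74-fold in the mean of both mutants (log2 0.80 ± 0.23, SE, limma adjusted p = 0.046), with 0.86 in Ex4 and 0.74 in LQ (limma adjusted p = 0.10 in each). The call was kept in 7 of 10 settings and, of 9 single-array omissions, on omitting WT replicate 1 or Ex4 replicate 1 (log2 0.61 to 1.02, highest limma adjusted p = 0.18). ATG4A and ATG4B had 0.37 and 0.39 in LQ, above all WT arrays in both cases, and ATG4D had -0.60 in Ex4 and -0.44 in LQ.

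**Figure D3:**
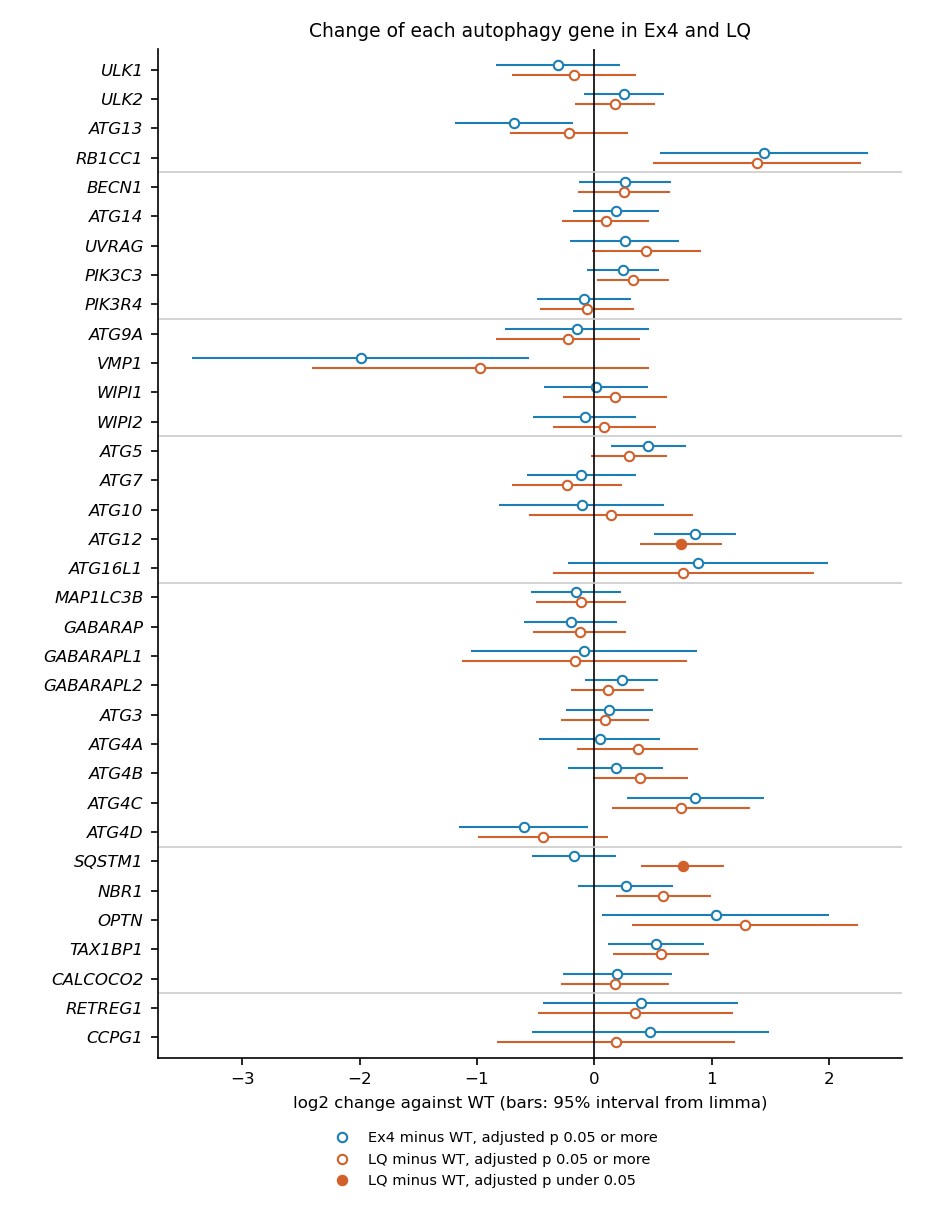
Log2 change of each of the 34 genes against WT in Ex4 and LQ (points) with the 95% interval from limma (bars), filled where the adjusted p is under 0.05. SQSTM1 and ATG12 are the filled points, both in LQ, and the Ex4 and LQ values of SQSTM1 lie 0.93 apart.

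The ER-phagy receptors did not pass. The mean log2 signal was 10.67 for RETREG1 and 9.21 for CCPG1, against a median of 10.96 for all genes. RETREG1 (FAM134B), which shapes and removes ER sheets, had 1588.5, 1352 and 1150 in WT, 849.5, 3272 and 2030 in Ex4 and 1736, 1573 and 1883.5 in LQ. Ex4 replicates 1 and 2 were the lowest and the highest of all 9 arrays. The log2 change was 0.40 ± 0.38 and 0.35 ± 0.38 (SE, limma adjusted p = 0.55 and 0.57), and a second tested probe set had -0.43 and -0.33. CCPG1, an ER-phagy receptor induced by ER stress in other systems, had 1099, 265.3 and 403.4 in WT, 604.3, 784.5 and 698.9 in Ex4 and 721.3, 642.7 and 383.4 in LQ. WT replicates 2 and 3 lay below their array medians, the groups overlapped, and the log2 change was 0.48 ± 0.47 and 0.19 ± 0.47 (SE, limma adjusted p = 0.55 and 0.82). For CCPG1 4 further probe sets that also name another gene were not used.

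Probe sets of 1 gene often pointed in different directions. Among 43 other tested probe sets of 22 genes, 25 had the sign of the representative in Ex4 and 18 the opposite, and in LQ the counts were 20 and 23. RB1CC1, TAX1BP1 and ATG5 had other probe sets of the same sign in both mutants, although the dimmest of ATG5 was only 0.005 in LQ. Probe sets of the opposite sign in Ex4, LQ or both were found for SQSTM1, CALCOCO2, ATG7, GABARAPL1, PIK3C3 and RETREG1. The same was true of ATG12, ATG13, BECN1, NBR1, ULK2 and WIPI2, among others. The scaling also mattered. When array medians were set equal, 11 of the 34 genes were called in Ex4 and 16 in LQ, all higher. Of all genes, 18.5% and 28.9% were then called higher. The all-gene median rose to 0.41 and 0.49 and that of the autophagy genes to 0.67 and 0.76. Under that scaling 31 and 33 of the 34 genes had a positive change, VMP1 being negative in both mutants, so most negative signs given above turn with it. After quantile normalization 0 were called in either mutant, with all-gene medians of -0.01 and 0.00 autophagy medians of 0.12 and 0.12, and 21 genes positive in each.

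**Figure D4:**
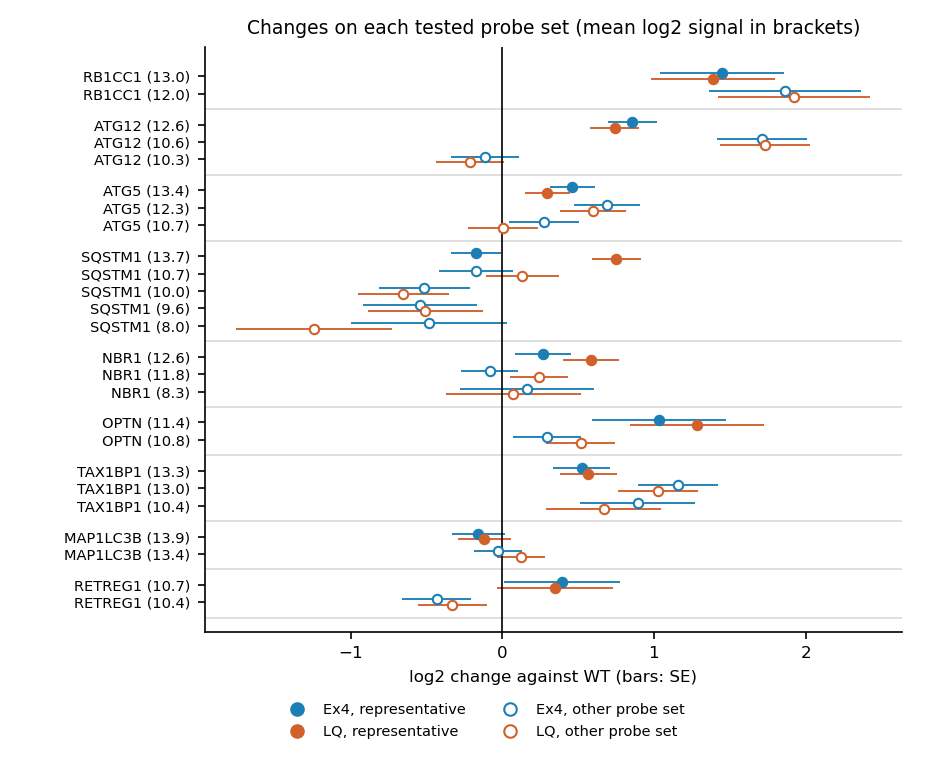
Log2 change in Ex4 and LQ on each tested probe set of RB1CC1, ATG12, ATG5, SQSTM1, NBR1, OPTN, TAX1BP1, MAP1LC3B and RETREG1. Bars are the SE, brackets hold the mean log2 signal, and filled points are the representative probe sets. The remainder of the 22 genes with other tested probe sets are not drawn, among them ATG7, GABARAPL1, CALCOCO2, WIPI2 and PIK3C3. The 4 dimmer SQSTM1 probe sets do not follow the representative in LQ, while the second RB1CC1 probe set does.

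A second list of 54 autophagy genes, with 49 tested, gave 2 calls in LQ, both higher (background 3.69% higher), 0 in Ex4, and 1 higher and 1 lower in the mean of both mutants (background 6.22% and 6.72%). The share in LQ is near that of all genes. ATG101, a further ULK complex subunit, had 3540, 5070 and 4513 in WT, 5442, 5536.5 and 4525 in Ex4 and 6702, 7216 and 7194 in LQ, and rose 1.62-fold in LQ (log2 0.70 ± 0.18, SE, limma adjusted p = 0.040). Every LQ array lay above every other array. The ATG101 call was lost after quantile normalization (limma adjusted p = 0.0883) and without the variance trend (0.0785). PRKAA2, a catalytic subunit of the energy sensor AMPK, rose 1.91-fold in LQ (log2 0.93 ± 0.25, SE, limma adjusted p = 0.046), from 1481 to 2940 in WT to 3341 to 4102 in LQ. In Ex4 it was 3072 to 4204.5, above all WT arrays, at 0.91 (limma adjusted p = 0.087), and in the mean of both mutants it rose by 0.92 (0.028). The LQ call was lost with its probe sets averaged (limma adjusted p = 0.68), after quantile normalization (0.063), without the variance trend (0.084), with no filter and with the replicate block. For PRKAA2 in the mean of both mutants, the call was lost without the variance trend (limma adjusted p = 0.0572) and with probe sets averaged (0.55). Its paralog PRKAA1 had -0.45 in Ex4 and -0.50 in LQ. CALCOCO1, an ER-phagy receptor, fell by 0.77 ± 0.20 on the log2 scale in the mean of both mutants (SE, limma adjusted p = 0.034), from 2006 to 3128 in WT to 1059 to 1435 in Ex4 and 1804 to 1880 in LQ. The CALCOCO1 call was lost after quantile normalization, with median centring and without the variance trend (limma adjusted p = 0.0559 for the last). Its LQ value was 0.07 with median centring. Of 9 single-array omissions, the ATG101 call held in 4 (WT replicate 1 or any Ex4 array), and the PRKAA2 call in LQ and the CALCOCO1 call in 2 (WT replicate 1 or Ex4 replicate 1). The median log2 change over the 49 genes was 0.02 in Ex4 and 0.05 in LQ.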

How the data were processed

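RNA of 9 samples was hybridised to Affymetrix arrays. The deposited values are linear intensities, 1 for each probe set on each array. MAS5 is named in the submitters' processing notes, without a version. It sets perfect-match against mismatch probes and brings arrays to a shared mean. The trimmed means lay between 1493.3 and 1494.9, so that scaling was kept. The number of arrays limits the precision.

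Of 54613 non-control probe sets, 41091 carried 1 symbol in the platform annotation, 1801 several and 11721 none, and only those with 1 were named, with symbols updated through a RefSeq table (54 kept the annotation's symbol). Values were used as log2(value + 16), which understates how far dim genes moved. A filter on the mean at percentile 40 left 32768 probe sets. One limma model (3.58.1, R 4.3.3) with a trended variance used all 9 arrays, with two-sided tests, Benjamini-Hochberg adjustment over all tested probe sets and a threshold of 0.05. It was tested on simulated data.

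The genes, lists and tests were chosen with earlier results of these data known. All 34 genes have a value; those past the threshold, those with the smallest adjusted p up to 8, and SQSTM1, MAP1LC3B, CCPG1 and RETREG1 are described by array. From the second list those past the threshold were named; PRKAA1 was named after its values were seen. Promoter windows are from RefSeq, GRCh38.p14. Alternatives were pseudocounts of 1 and 64, quantile normalization, median centring, array weights, no filter, a percentile 60 filter, a constant prior variance (no variance trend), the replicate number as a block, averaging each gene's probe sets, fitting the compared arrays alone, and each array left out.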

Additional observations from a re-analysis of the deposited data

How the results depend on the processing

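Counts of the 34 genes called (2 in LQ, 0 in Ex4 and 4 in the mean of both mutants) changed with the setting. Quantile normalization gave 0 in LQ and 2 in the mean. Median centring gave 11 in Ex4, 16 in LQ and 19 in the mean. It called 18.5%, 28.9% and 33.0% of all genes higher and 0.842%, 1.21% and 1.8% lower. No variance trend gave 0 in LQ and 1 in the mean, no filter 2 in the mean, and only the arrays compared 4 in LQ. Array weights gave 6, 9 and 8. With them 9.26%, 13.6% and 14.1% of all genes were called higher and 9.05%, 15% and 16.1% lower. Averaging probe sets by gene gave 0, 3 and 5, with 0.0%, 3.07% and 4.59% of all genes higher and 0.00713%, 4.81% and 8.21% lower. Genes were called lower in some of these: VMP1 (only the arrays compared, array weights, without Ex4 replicate 1), ATG4D (array weights, without WT replicate 1), ATG13 (without WT replicate 1) and CALCOCO2 (probe sets averaged). With the replicate number as a block the counts were 0, 3 and 2. Of all genes, 0.0%, 3.77% and 6.84% were then called higher and 0.00713%, 3.47% and 6.71% lower. Deviations from the group means correlated at -0.0827 to 0.191 between same-numbered arrays and at -0.229 to 0.164 between others. With 3 arrays in each group these values cannot tell whether the numbers pair samples. Leaving out 1 array at a time gave 0 to 7 in Ex4, 0 to 6 in LQ and 0 to 10 in the mean. The highest counts came without WT replicate 1, where 8.59%, 9.97% and 11.8% of all genes were called higher and 5.2%, 7.8% and 10.5% lower. All 3 counts were 0 without WT replicate 2 or 3. LQ against Ex4 gave 0 throughout.

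For the second list (0 in Ex4, 2 in LQ, 2 in the mean) quantile normalization gave 0 in LQ. Median centring gave 11, 21 and 23, array weights 9, 11 and 14, and no variance trend 0 in LQ and in the mean. The all-gene shares for median centring, array weights, the replicate block and the fits without WT replicate 1 are those given above. In LQ it was 1 with no filter, 4 with only the arrays compared and 1 with probe sets averaged, and in the mean 6 with the replicate block. Leaving out 1 array gave 0 to 7, 0 to 8 and 0 to 9.

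Of 843 gene values under alternatives, 13 changed sign, and 1 of these was called as reported. With median centring SQSTM1 in Ex4 became 0.32, MAP1LC3B 0.33 in Ex4, 0.47 in LQ and 0.40 in the mean, and CALCOCO1 in LQ 0.0726. With probe sets averaged by gene SQSTM1 became -0.30 in LQ, the called value, and -0.34 in the mean, RETREG1 -0.018 in Ex4 and -0.00391 in the mean, and MAP1LC3B 0.00325 in LQ. Leaving out 1 array moved RETREG1 in Ex4 between -0.0398 (without Ex4 replicate 2) and 0.923 (without Ex4 replicate 1). It moved CCPG1 between -0.241 and 0.753 in LQ and between -0.0954 and 0.898 in the mean, without WT replicate 2 and WT replicate 1. The cause of these changes was not tested.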
